A study of Mus musculus with 6 samples.

Results

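The 8 genes described here encode transporters that carry amino acids across the plasma membrane of the mammary epithelial cell: Slc7a5, Slc3a2, Slc7a11, Slc1a5, Slc1a4, Slc38a1, Slc38a2 and Slc7a1. They were chosen by name, as carriers that supply milk protein synthesis, with earlier results of these data known. All 8 were found among the 17739 genes of the deposited table. RNA came from mammary epithelial organoids, small pieces of epithelium that collagenase and pronase free from the gland, of FVB mice on lactation day 1. The Nmi knockout group held 3 mice with the genotype Nmi-/- and the wild type group held 3 mice, with 1 library per mouse. The series title calls the knockout conditional, and the sources used here give neither the promoter that drives the recombinase nor the exons removed. Replicate numbers below only name libraries. No transporter differed between the genotypes past the threshold, and the mRNA levels of the 8 genes spanned a wide range in both genotypes.

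A lactating mammary cell takes up amino acids from blood and builds milk proteins, chiefly caseins, from them. Exchangers such as LAT1, the product of Slc7a5, bring in large neutral amino acids including leucine in return for others, and sodium-coupled carriers such as SNAT2, the product of Slc38a2, build up the small neutral amino acids. Leucine and arginine inside the cell are sensed by the mTORC1 pathway, which promotes translation, while a shortage of amino acids activates the kinase GCN2 and the transcription factor ATF4, which is known to induce many transporter genes.

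Promoters are shown for the transporters whose start region holds the sequence of an ATF4 or an NRF2 response element, NRF2 being the transcription factor of the response to oxidative stress. RefSeq (GRCm38.p6) gave 6 promoters for 5 of the 8 genes, namely Slc7a11, Slc7a1, Slc1a4, Slc38a2 and Slc3a2. Each was searched, from 250 bases before to 50 bases after the annotated start and on both strands, for TGATGNAA, the composite element of ATF4 and C/EBP proteins, and for TGACNNNGC, the antioxidant element that NRF2 binds. The stretches below run 5′ to 3′ on the gene's strand from 120 bases before the start to 30 bases after it, and capitals mark the matched letters. Slc7a11 lies at chr3:50443584-50443733 (minus strand), Slc1a4 at chr11:20332684-20332833 (minus strand), Slc7a1 at chr5:148399875-148400024 (minus strand) and Slc38a2 at chr15:96699699-96699848 (minus strand).
Slc7a11: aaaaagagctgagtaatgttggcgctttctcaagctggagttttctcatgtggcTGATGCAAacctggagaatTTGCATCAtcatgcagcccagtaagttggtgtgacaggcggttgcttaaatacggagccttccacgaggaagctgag
Slc1a4: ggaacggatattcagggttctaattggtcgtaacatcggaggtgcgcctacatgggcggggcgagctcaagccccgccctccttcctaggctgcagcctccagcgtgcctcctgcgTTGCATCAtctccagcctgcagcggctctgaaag
Slc7a1: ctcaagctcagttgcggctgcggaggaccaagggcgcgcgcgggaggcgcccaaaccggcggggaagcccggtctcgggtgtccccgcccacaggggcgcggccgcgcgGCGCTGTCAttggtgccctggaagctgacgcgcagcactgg
Slc38a2: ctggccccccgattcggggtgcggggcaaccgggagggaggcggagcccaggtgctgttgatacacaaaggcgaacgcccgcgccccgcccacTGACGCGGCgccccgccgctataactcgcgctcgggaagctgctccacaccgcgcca

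Slc7a11 held 2 matches to TGATGNAA, one on each strand, whose first letters lay 66 and 47 bases before the start. Slc1a4 held 1, on the opposite strand, which began 4 bases before the start and ran across it. Of the 32851 promoters searched, 3.97% held at least 1 match to TGATGNAA and 0.07% held at least 2. TGACNNNGC was matched in Slc7a1, 11 bases before the start on the opposite strand, and in Slc38a2, 27 bases before the start, and it occurred in 12.4% of all promoters. Neither motif was found in the window of Slc3a2 (chr19:8713848-8714147) or in the second Slc7a1 promoter (chr5:148392766-148393065). Both windows lie inside the gene as annotated by GENCODE. The outer start of Slc3a2, at chr19:8723369, was not searched. These matches are letters in a window and were not tied to binding in these cells.

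Nmi itself was low in the knockout libraries. Its FPKM (fragments mapped to the gene, scaled to its transcript length and to the library total) was 0.188, 0.547 and 0.564 in Nmi knockout libraries 1, 2 and 3, against 4.60, 2.82 and 2.32 in wild type libraries 1, 2 and 3, a log2 fold change of -1.54 (adjusted p = 0.372, limma with the Benjamini-Hochberg adjustment, written BH below). The libraries also differed in how much of their signal came from milk: the 18 milk protein genes held 65.5%, 62.2% and 75.2% of the FPKM sum in Nmi knockout libraries 1, 2 and 3 and 46.9%, 59.8% and 68.9% in wild type libraries 1, 2 and 3. Because FPKM is scaled to the library, a larger milk share lowers the FPKM of other genes. Wild type library 1 and Nmi knockout library 3, with the lowest and the highest milk share, stood at the ends of the first principal component, which held 73.8% of the variance. All 6 epithelial markers (such as Epcam and Krt8) were expressed, with summed levels of 1041 to 3306 FPKM in the Nmi knockout and 2570 to 5195 FPKM in wild type, while the summed lymphocyte markers stayed at 0.184 FPKM or less and the macrophage markers at 7.38 FPKM or less. In bulk RNA, fewer cells of a type and less RNA per cell cannot be told apart.

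The 8 transporters spanned a wide range of mRNA levels, which FPKM allows to be compared between genes because it is per length. Slc3a2 was the highest in all 6 libraries, with a mean of 120.4 FPKM, and stood at the 98.4th percentile of the 9767 genes tested. Slc38a2 (53.6 FPKM) and Slc7a5 (52.2 FPKM) came next, above the 95th percentile, and could not be ordered, since each was the higher in 3 libraries. Slc1a4 (14.5 FPKM) and Slc7a1 (11.1 FPKM) formed a middle pair, with Slc1a4 the higher in 4 of 6 libraries. Slc1a5 (4.32 FPKM) and Slc38a1 (3.73 FPKM) were also in no fixed order, with each the higher in 3 libraries. Slc7a11 was the lowest, at 2.09 FPKM and the 17.9th percentile, and lay under Slc38a1 in 5 of 6 libraries, the exception being wild type library 1. Low genes also varied the most: the highest library held 6.45 times the lowest for Slc7a11, 4.73 times for Slc1a5 and 4.66 times for Slc38a1, but 1.46 times for Slc38a2 and 1.59 times for Slc7a5.

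**Figure D1:**
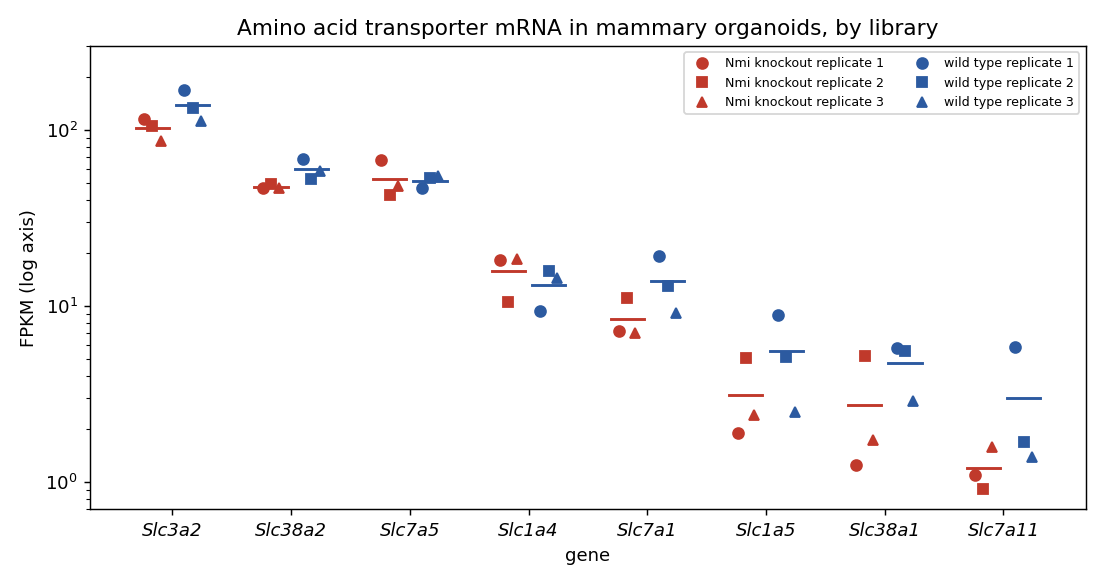
FPKM of the 8 transporters (log axis) in each library, with Nmi knockout in red and wild type in blue and a bar at the mean of each genotype; the symbol gives the replicate. Slc3a2 lies highest in every library, and the genotypes overlap for every gene but Slc38a2.

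Slc3a2 encodes the heavy chain 4F2hc (CD98), a glycoprotein that binds several light chains and brings them to the cell surface. The gene lies at chr19:8706882-8723369 (GRCm38, minus strand). Its level was 116, 105 and 86.3 FPKM in Nmi knockout libraries 1, 2 and 3, against 169, 134 and 113 FPKM in wild type libraries 1, 2 and 3. Only Nmi knockout library 1 reached above the lowest wild type library, so the genotypes overlapped by a single pair. The means were 102.5 ± 15.0 FPKM in the Nmi knockout and 138 ± 28.2 FPKM in wild type (SD, n = 3 each). Nmi knockout over wild type gave a log2 fold change of -0.42 (SE 0.29, with a 95% interval of -1.06 to 0.22; adjusted p = 0.768, BH-adjusted limma), and -0.27 without wild type library 1. Stretches of up to 182 bases of the longest Slc3a2 transcript matched 213 other genes at an identity of 95% or above, so some of its reads may have been shared with them.

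Slc7a5 encodes LAT1, the light chain that exchanges leucine and other large neutral amino acids when bound to the Slc3a2 protein, and lies at chr8:121881150-121907694 (minus strand). It had 67.8, 42.6 and 48.1 FPKM in Nmi knockout libraries 1, 2 and 3 and 46.8, 53.3 and 54.5 FPKM in wild type libraries 1, 2 and 3. The highest and the lowest of the 6 values both belonged to the knockout, and the wild type values lay between them. The means, 52.8 ± 13.2 FPKM in the Nmi knockout and 51.5 ± 4.12 FPKM in wild type (SD, n = 3 each), were close to each other. The log2 fold change was 0.01, with a 95% confidence interval of -0.60 to 0.62 (adjusted p = 0.986, BH-adjusted limma). That interval leaves room for a difference of more than 1.5-fold either way.

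Slc7a11 encodes xCT, the light chain that takes up cystine in return for glutamate and so feeds glutathione synthesis, and lies at chr3:49892526-50443614 (minus strand). Its level was 1.10, 0.911 and 1.58 FPKM in Nmi knockout libraries 1, 2 and 3, against 5.88, 1.69 and 1.38 FPKM in wild type libraries 1, 2 and 3. Wild type library 1 stood far above the other 5 libraries, which shared a narrow range. The means were 1.20 ± 0.347 FPKM in the Nmi knockout and 2.98 ± 2.51 FPKM in wild type (SD, n = 3 each). This made a log2 fold change of -0.70 (SE 0.35, with a 95% interval of -1.47 to 0.07; adjusted p = 0.768, BH-adjusted limma). Without wild type library 1 it was -0.22. Stretches of up to 375 bases of the long Slc7a11 transcript matched 9 other genes in the same way.

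Heavy and light chains were set against each other within a library, where the scaling of FPKM to the library total cancels. Slc7a5 mRNA was 0.584, 0.405 and 0.557 times Slc3a2 mRNA in Nmi knockout libraries 1, 2 and 3 and 0.278, 0.399 and 0.483 times in wild type libraries 1, 2 and 3. Nmi knockout libraries 1 and 3 lay above all wild type libraries and Nmi knockout library 2 lay among them. The mean ratio was 0.516 ± 0.0968 in the Nmi knockout and 0.386 ± 0.103 in wild type (SD, n = 3 each), a quotient of 1.33, and it was given no test. Leaving out single libraries moved the quotient between 1.17 and 1.52. The 3 libraries with the largest milk share (Nmi knockout libraries 1 and 3 and wild type library 3) had the 3 highest ratios, so genotype and milk share cannot be told apart in it. Slc3a2 mRNA exceeded the summed mRNA of the light chain genes Slc7a5, Slc7a6, Slc7a7, Slc7a8, Slc7a10 and Slc7a11 in every library. The light to heavy ratio was 0.658, 0.510 and 0.709 in Nmi knockout libraries 1, 2 and 3 and 0.372, 0.477 and 0.573 in wild type libraries 1, 2 and 3. Slc7a5 made up 74.7% (wild type library 1) to 88.8% (Nmi knockout library 1) of that sum. Slc7a11 contributed little to that sum, since its own ratio to Slc3a2 was 0.0122 ± 0.0054 in the Nmi knockout and 0.0199 ± 0.0130 in wild type (SD, n = 3 each). The quotient of these means was 0.610, and 0.977 without wild type library 1.

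**Figure D2:**
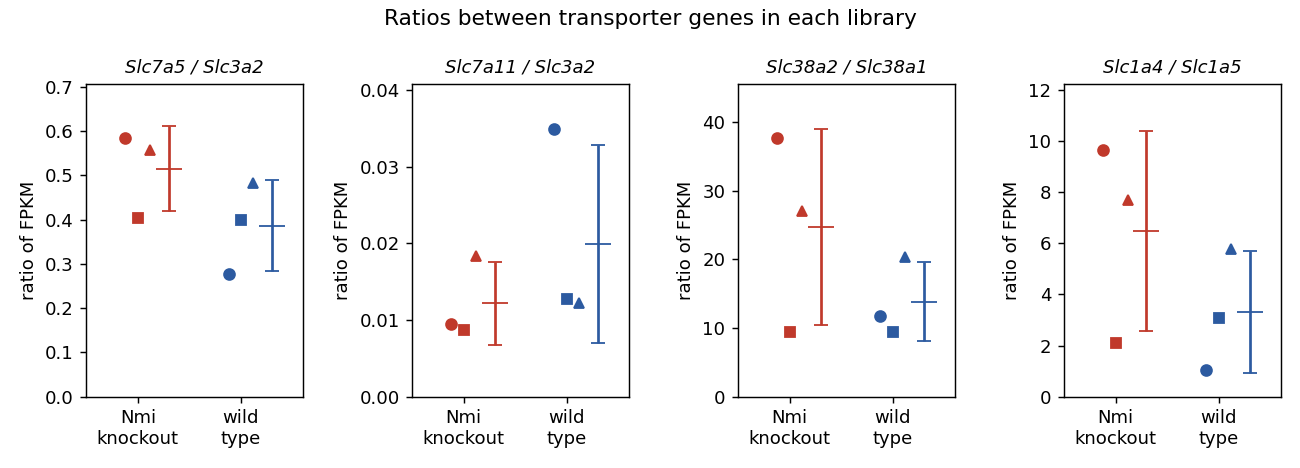
Ratios of FPKM between pairs of transporter genes in each library (points), with Nmi knockout left of wild type and the mean ± SD of the 3 libraries beside the points. The Slc7a5 to Slc3a2 ratio averages 0.516 in the Nmi knockout and 0.386 in wild type, and the genotypes overlap in all 4 panels.

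Slc1a5 encodes ASCT2, a sodium-dependent exchanger that takes up glutamine, and lies at chr7:16781340-16798274 (plus strand). It had 1.89, 5.04 and 2.40 FPKM in Nmi knockout libraries 1, 2 and 3, against 8.92, 5.16 and 2.49 FPKM in wild type libraries 1, 2 and 3. Each genotype held both low and higher values, with Nmi knockout library 2 near wild type library 2 and Nmi knockout library 3 near wild type library 3. The means were 3.11 ± 1.69 FPKM in the Nmi knockout and 5.52 ± 3.23 FPKM in wild type (SD, n = 3 each). The fitted log2 fold change of Slc1a5 was -0.61 (SE 0.38, with a 95% interval of -1.46 to 0.23; adjusted p = 0.768, BH-adjusted limma), -0.25 without wild type library 1 and -1.003 without wild type library 3.

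Slc1a4 encodes the related exchanger ASCT1, which carries serine, alanine and cysteine, and lies at chr11:20302180-20332713 (minus strand). Its level was 18.2, 10.5 and 18.6 FPKM in Nmi knockout libraries 1, 2 and 3 and 9.33, 15.9 and 14.4 FPKM in wild type libraries 1, 2 and 3. The lowest value belonged to wild type library 1, the library in which Slc1a5 was the highest. The means were 15.8 ± 4.57 FPKM in the Nmi knockout and 13.2 ± 3.44 FPKM in wild type (SD, n = 3 each), with a log2 fold change of 0.23 (SE 0.30, with a 95% interval of -0.43 to 0.89). Its adjusted p was 0.779 (BH-adjusted limma). Single libraries decided the size: it was 0.01 without wild type library 1, 0.10 without Nmi knockout library 3, 0.11 without Nmi knockout library 1, 0.37 without wild type library 2 and 0.48 without Nmi knockout library 2.

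As a pair, the ASCT genes shifted against each other from library to library. Slc1a4 mRNA was 9.65, 2.08 and 7.72 times Slc1a5 mRNA in Nmi knockout libraries 1, 2 and 3, against 1.05, 3.08 and 5.79 times in wild type libraries 1, 2 and 3. Nmi knockout libraries 1 and 3 had the highest ratios and Nmi knockout library 2 the second lowest, so the order did not follow genotype. Wild type library 3 came next after the highest, and these libraries were also those with the largest milk share. The longest transcripts of the 2 genes matched at 72.8% identity over 757 bases, and no other gene carried a near-identical copy of either.

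Slc38a2 encodes SNAT2, the sodium-coupled carrier of small neutral amino acids whose induction in cells that lack amino acids is well known, and lies at chr15:96687392-96699730 (minus strand). It had 46.8, 49.2 and 46.6 FPKM in Nmi knockout libraries 1, 2 and 3, against 68.0, 52.4 and 58.5 FPKM in wild type libraries 1, 2 and 3. The 3 knockout values lay close together and all under the 3 wild type values, the only one of the 8 genes in which the genotypes did not overlap. The means were 47.5 ± 1.42 FPKM in the Nmi knockout and 59.7 ± 7.85 FPKM in wild type (SD, n = 3 each). That is a log2 fold change of -0.31 (SE 0.26, with a 95% interval of -0.88 to 0.25; adjusted p = 0.768, BH-adjusted limma). The exact two-sided permutation test of Slc38a2 gave p = 0.1, the smallest p that 3 against 3 mice allow. Among all genes tested, 3.83% lay lower in the Nmi knockout with no overlap and 0.778% lay higher with no overlap.

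Slc38a1 encodes SNAT1, the sister carrier known chiefly for glutamine uptake, and is the neighbour of Slc38a2 on the chromosome, at chr15:96571418-96642913 (minus strand). Its level was 1.24, 5.21 and 1.72 FPKM in Nmi knockout libraries 1, 2 and 3, against 5.78, 5.55 and 2.88 FPKM in wild type libraries 1, 2 and 3. Nmi knockout library 2 lay with the higher wild type libraries, and the other knockout libraries lay under all wild type libraries. The means were 2.72 ± 2.16 FPKM in the Nmi knockout and 4.73 ± 1.61 FPKM in wild type (SD, n = 3 each). Its fitted log2 fold change was -0.73 (SE 0.37, with a 95% interval of -1.54 to 0.09; adjusted p = 0.768, BH-adjusted limma), -0.44 without Nmi knockout library 1 and -1.17 without Nmi knockout library 2. Slc38a2 mRNA exceeded Slc38a1 mRNA 37.7, 9.44 and 27.1 times in Nmi knockout libraries 1, 2 and 3 and 11.8, 9.45 and 20.3 times in wild type libraries 1, 2 and 3, so the steady Slc38a2 and the variable Slc38a1 did not move in proportion. Nmi knockout libraries 1 and 3 and wild type library 3, with the largest milk share, had the highest ratios here too.

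Slc7a1 encodes CAT-1, which takes up arginine, lysine and ornithine and needs no heavy chain, and lies at chr5:148327410-148399904 (minus strand). It had 7.21, 11.1 and 7.01 FPKM in Nmi knockout libraries 1, 2 and 3, against 19.2, 13.0 and 9.12 FPKM in wild type libraries 1, 2 and 3. Nmi knockout library 2 lay above the lowest wild type library, and the other knockout libraries lay under all 3. The means were 8.45 ± 2.32 FPKM in the Nmi knockout and 13.8 ± 5.06 FPKM in wild type (SD, n = 3 each). Slc7a1 had the smallest unadjusted limma p of the 8 genes, 0.0664, with a log2 fold change of -0.62 (SE 0.30, with a 95% interval of -1.28 to 0.05; adjusted p = 0.768 after Benjamini-Hochberg adjustment). Without wild type library 1 it was -0.36.

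Across the set, 0 of 8 transporters passed an adjusted p under 0.05 with limma and Benjamini-Hochberg adjustment, and the background was the same, 0% of the 9767 genes tested. At an unadjusted p under 0.05, limma called none of the 8, against a background of 1.15% of genes lower and 0.184% higher in the Nmi knockout (112 and 18 genes). Without wild type library 3 the unadjusted test called 4 of the 8 (Slc1a5, Slc7a11, Slc38a1 and Slc7a1, all lower), and 5.89% of all genes were then lower. Without Nmi knockout library 2 it called 3 of the 8 (Slc1a5, Slc38a1 and Slc7a1), and 10.9% of all genes were then lower. The fold change was below 0 for 6 of the 8 transporters and for 7980 of the 9767 genes. The median log2 fold change was -0.52 for the 8 and -0.21 for all genes, and without wild type library 1 it was -0.23 for the 8 and -0.10 for all genes. The exact two-sided permutation test gave p = 0.1 for Slc38a2, 0.5 for Slc1a4, 1 for Slc7a5 and 0.2 for each of the other 5 genes. Relative to the median of all genes, Slc7a5 stood at 0.22 and Slc1a4 at 0.43, Slc38a2 at -0.11 and Slc3a2 at -0.21, and Slc1a5, Slc7a1, Slc7a11 and Slc38a1 between -0.52 and -0.41. Other scalings moved the split of unadjusted calls from 18 higher and 112 lower as deposited to 100 higher and 76 lower after trimmed-mean rescaling, where the median of all genes was 0.01 and that of the 8 was -0.26.

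**Figure D3:**
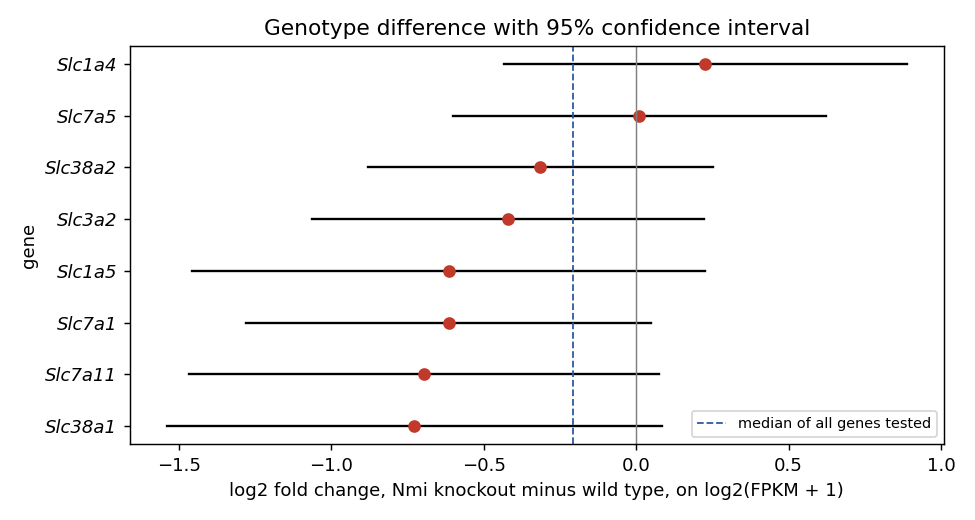
Log2 fold change of each transporter, Nmi knockout minus wild type, on log2(FPKM + 1) with its 95% confidence interval; the dashed line is the median of all genes tested (-0.21). Every interval includes 0, and only Slc7a5 and Slc1a4 have estimates above 0.

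The transporters were also set against the milk share of the library, by counts beside those of all genes and without a test of the counts. Slc1a5, Slc38a1 and Slc7a1 each had their 3 highest values in the 3 libraries with the least milk RNA, namely Nmi knockout library 2 and wild type libraries 1 and 2. That is 37.5% of the 8, beside 46.7% of all genes tested. Wild type library 1 was the highest of all for 6 of the 8 transporters (75%) and for 63.5% of all genes. The exceptions were Slc7a5, highest in Nmi knockout library 1, and Slc1a4, highest in Nmi knockout library 3. The part of the milk share in the differences between the genotypes was not separated by the design. With that share as a covariate in limma all 8 fold changes lay between -0.34 and -0.05, with a median of -0.21. Of all 9767 genes tested, 4877 were then below 0, and their median was 0.0002.

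**Figure D4:**
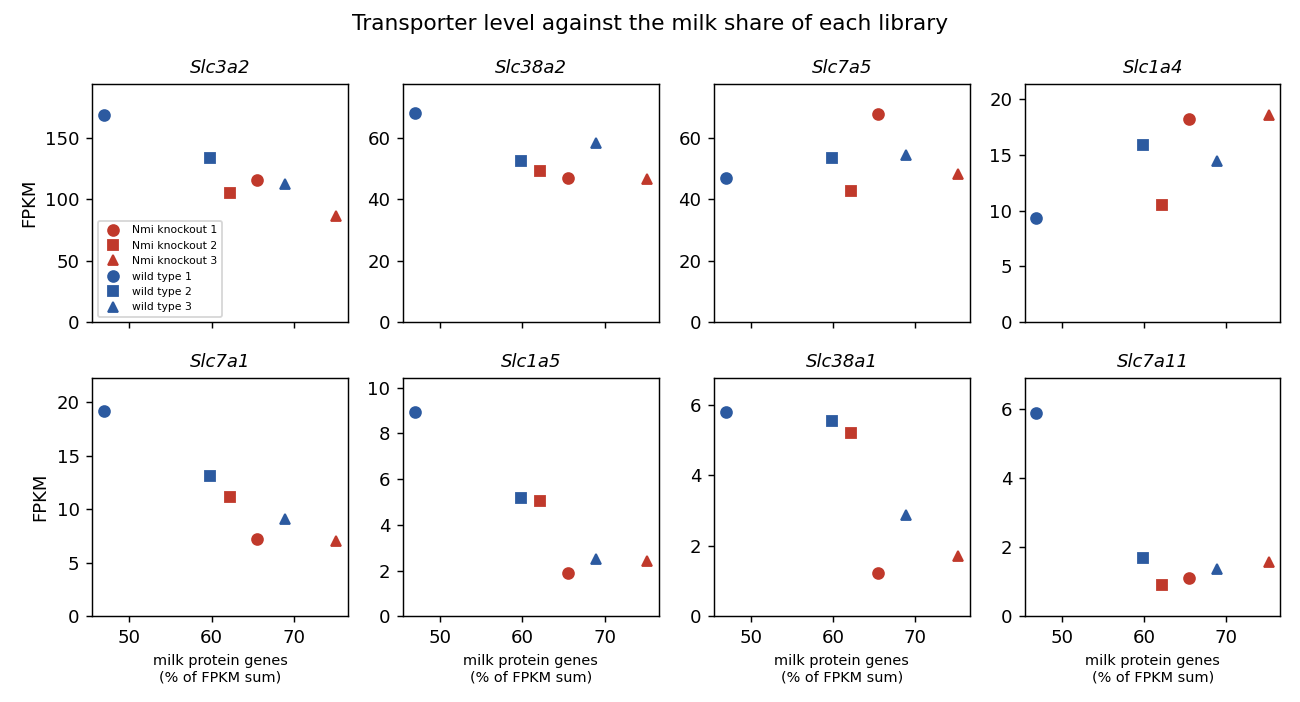
FPKM of each transporter against the percent of the FPKM sum held by the 18 milk protein genes, 1 point per library, with Nmi knockout in red and wild type in blue. The point of wild type library 1, at 46.9% milk, is the highest in 6 of the 8 panels, all but those of Slc7a5 and Slc1a4.

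Scaled to the sum outside the milk protein genes, the summed level of the 8 genes differed less. Slc3a2, Slc38a2 and Slc7a5 made up most of that summed level. The median log2 fold change after this scaling was -0.32 for the 8 and -0.04 for all genes. Together the 8 genes held 260.3, 229.7 and 212 FPKM in Nmi knockout libraries 1, 2 and 3, against 332, 281 and 256 FPKM in wild type libraries 1, 2 and 3. As a share of the FPKM outside milk proteins that was 0.163%, 0.138% and 0.168% in Nmi knockout libraries 1, 2 and 3 and 0.165%, 0.164% and 0.171% in wild type libraries 1, 2 and 3. Only Nmi knockout library 2 stood apart there. On this scale Slc3a2 had 118, 102 and 111 in Nmi knockout libraries 1, 2 and 3, against 136, 127 and 123 in wild type libraries 1, 2 and 3, with no overlap, while Slc38a2 overlapped. Trimmed-mean rescaling and quantile normalization also made Slc3a2, in place of Slc38a2, the gene without overlap. The 6 genes with estimates below 0 (Slc3a2, Slc7a11, Slc1a5, Slc38a1, Slc38a2 and Slc7a1) stayed below 0 under every alternative in which they were tested.

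Of the 6 epithelial markers, 5 were highest in wild type library 1, all but Elf5. The summed adipocyte markers were 264, 441 and 157 FPKM in Nmi knockout libraries 1, 2 and 3 and 672, 499 and 212 FPKM in wild type libraries 1, 2 and 3, and nearly all of that sum was Fabp4, which endothelium also expresses. Adipoq, Plin1 and Lep were listed at 0.167 FPKM or less in every library. The basal and myoepithelial sum was 293, 1063 and 306 FPKM in Nmi knockout libraries 1, 2 and 3 and 777, 632 and 375 FPKM in wild type libraries 1, 2 and 3. Its peak in Nmi knockout library 2 came from Acta2 and Myh11, while the other 4 markers (Krt5, Krt14, Trp63 and Oxtr) were highest in wild type library 1. The macrophage sum, 4.54 to 6.68 FPKM in the Nmi knockout and 7.20 to 7.38 FPKM in wild type, was mostly Cd68, at 4.67 FPKM in the Nmi knockout and 6.90 FPKM in wild type on average. The other 4 macrophage markers were each under 1 FPKM, with higher means in the Nmi knockout. The other lists overlapped: endothelial markers summed to 41.7 to 79.9 FPKM in the Nmi knockout and 41.7 to 80.0 FPKM in wild type, and fibroblast markers to 32.2 to 59.1 FPKM in the Nmi knockout and 22.7 to 52.1 FPKM in wild type. Erythroid markers summed to 3.84 to 18.4 FPKM in the Nmi knockout and 3.71 to 8.56 FPKM in wild type. The 3 lymphocyte markers in the table were each listed at 0 in at least 1 library. The part of these cell types in the transporter levels was not tested.

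Other plasma membrane amino acid transporters had a median nearer to that of all genes. Of 25 in the table, 12 were expressed highly enough to be tested, with a median log2 fold change of -0.10, and none passed the adjusted threshold. At an unadjusted p under 0.05 limma called 1 higher and 1 lower, beside 0.184% of all genes higher and 1.15% lower. Slc38a3, the glutamine carrier SNAT3, had 6.81, 2.58 and 9.17 FPKM in Nmi knockout libraries 1, 2 and 3, against 1.08, 2.81 and 4.34 FPKM in wild type libraries 1, 2 and 3 (log2 fold change 0.92, adjusted p = 0.768, limma). Slc6a9, the glycine transporter GlyT1, had 2.14, 1.92 and 1.28 FPKM in Nmi knockout libraries 1, 2 and 3, against 12.1, 2.61 and 2.74 FPKM in wild type libraries 1, 2 and 3 (log2 fold change -1.03, adjusted p = 0.768, limma). As for Slc7a11, wild type library 1 stood far above the other 5 libraries. Slc43a2 (LAT4), the most abundant of the list, ranged from 14.3 to 19.1 FPKM in 5 libraries but had 2.43 FPKM in Nmi knockout library 3. Slc7a8 (LAT2), a further light chain of 4F2hc, was low, at 1.56 ± 0.915 FPKM in the Nmi knockout and 0.901 ± 0.276 FPKM in wild type (SD, n = 3 each).

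Genes of the amino acid response through GCN2 and ATF4 had a median log2 fold change of -0.43, close to that of the 8 transporters. All 20 were tested, 0 passed the adjusted threshold, and 5 were lower at an unadjusted p under 0.05 by limma (Psat1, Mthfd2, Psph, Atf5 and Vldlr), with none higher, beside the background of 1.15% of all genes lower. In 5 of the 20 the Nmi knockout lay lower with no overlap, beside 3.83% of all genes. The list as a whole was not tested. Psat1, an enzyme of serine synthesis, had 12.6, 11.7 and 9.72 FPKM in Nmi knockout libraries 1, 2 and 3, against 36.4, 18.7 and 17.2 FPKM in wild type libraries 1, 2 and 3, with no overlap. The next enzyme of that route, Psph, had 1.03, 1.24 and 1.16 FPKM in Nmi knockout libraries 1, 2 and 3 and 2.77, 1.89 and 1.58 FPKM in wild type libraries 1, 2 and 3, also without overlap. Mthfd2, a mitochondrial enzyme of folate metabolism, overlapped between the genotypes (6.42 ± 2.69 FPKM in the Nmi knockout and 17.4 ± 10.4 FPKM in wild type; SD, n = 3 each). Atf4 itself was abundant, with 162, 212 and 159.8 FPKM in Nmi knockout libraries 1, 2 and 3, against 302, 219 and 189 FPKM in wild type libraries 1, 2 and 3, and overlapped as well. Nupr1, a stress-induced nuclear protein, was the most abundant gene of the list (216 ± 78.1 FPKM in the Nmi knockout and 391 ± 207 FPKM in wild type; SD, n = 3 each). Without wild type library 1 the median of the list was -0.23 and that of all genes -0.10.

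The cytosolic aminoacyl-tRNA synthetases, which load amino acids onto tRNA, had a median log2 fold change of -0.34, with 19 of 20 below 0. With limma 0 of the 20 were called at either threshold, beside 1.15% of all genes lower and 0.184% higher at the unadjusted one. Tars, the threonine enzyme, was the only one of the 20 without overlap, beside 3.83% of all genes that lay lower without overlap. It had 16.2, 20.0 and 16.9 FPKM in Nmi knockout libraries 1, 2 and 3, against 41.6, 23.2 and 20.0 FPKM in wild type libraries 1, 2 and 3. The nearest values of the genotypes were nearly equal. Gars, the glycine enzyme, had the smallest p of the list and log2 fold change -0.82, and Cars, the cysteine enzyme, had -0.65. Nars, the asparagine enzyme and with Gars the most abundant, had -0.45. For 17 of the 20 the highest value was in wild type library 1. Without that library the median of the list was -0.13.

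Lysosomal amino acid transport and mTORC1 amino acid sensing genes lay nearer to the median of all genes, at -0.14 for 24 tested genes, of which 0 passed the adjusted threshold. At an unadjusted p under 0.05 limma called 2 lower and 0 higher, beside 1.15% of all genes lower and 0.184% higher. In 5 of the 24 the Nmi knockout lay lower with no overlap, beside 3.83% of all genes. Sesn2, a leucine sensor, had 6.77, 6.93 and 6.03 FPKM in Nmi knockout libraries 1, 2 and 3, against 11.0, 11.6 and 8.15 FPKM in wild type libraries 1, 2 and 3, without overlap. Pqlc2, an exporter of cationic amino acids from lysosomes, had 1.99 ± 0.527 FPKM in the Nmi knockout and 3.50 ± 0.635 FPKM in wild type (SD, n = 3 each). Eif4ebp1, the translation repressor that mTORC1 inactivates, had 57.4, 62.3 and 39.1 FPKM in Nmi knockout libraries 1, 2 and 3, against 137, 77.0 and 61.6 FPKM in wild type libraries 1, 2 and 3, where 1 pair overlapped. Rheb, the small GTPase that activates mTORC1, had 23.7 ± 2.27 FPKM in the Nmi knockout and 27.2 ± 4.67 FPKM in wild type (SD, n = 3 each).

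Glutathione synthesis and NRF2 target genes form a list with a link to xCT, since glutathione is built from cysteine. Their median log2 fold change was -0.40 over 12 tested genes, and -0.19 without wild type library 1, and 0 passed the adjusted threshold. Hmox1, which breaks down haem, was the only one called at an unadjusted p under 0.05 by limma, at 167, 148 and 171 FPKM in Nmi knockout libraries 1, 2 and 3, against 624, 238 and 214 FPKM in wild type libraries 1, 2 and 3. Of all genes, 1.15% were lower at that threshold. Like Slc7a11, Hmox1 was by far highest in wild type library 1. Hmox1 and Nfe2l2, the gene of NRF2, were the 2 of the 12 that lay lower without overlap, beside 3.83% of all genes. Nfe2l2 had 20.6 ± 1.21 FPKM in the Nmi knockout and 30.3 ± 4.59 FPKM in wild type (SD, n = 3 each). Gclm, a subunit of the enzyme that starts glutathione synthesis, had a log2 fold change of -0.72, and Txnrd1, a thioredoxin reductase, -0.25, and both overlapped.

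Genes that break down branched-chain amino acids or use glutamine and arginine had a median log2 fold change of -0.04 over 15 tested genes, and limma called 0 of them at either threshold. At the unadjusted threshold 1.15% of all genes were lower and 0.184% higher. Arg2, the mitochondrial arginase, had 17.1 ± 5.57 FPKM in the Nmi knockout and 11.8 ± 4.26 FPKM in wild type (SD, n = 3 each). Arg1, the cytosolic arginase, had 3.54 ± 0.522 FPKM in the Nmi knockout and 5.05 ± 1.42 FPKM in wild type (SD, n = 3 each). Glul, which makes glutamine, was nearly equal (51.4 ± 14.8 FPKM in the Nmi knockout and 52.7 ± 17.6 FPKM in wild type; SD, n = 3 each). The log2 fold change was 0.27 for Odc1, which turns ornithine into polyamine precursors, and 0.38 for Dbt, a subunit of the branched-chain keto acid dehydrogenase. The 18 milk protein genes ran the other way, with a median of 0.39, 16 of them above 0, and 0 called by limma at either threshold. Csn2, β-casein, alone held 111206, 91280 and 142436 FPKM in Nmi knockout libraries 1, 2 and 3, against 54112, 85706 and 125272 FPKM in wild type libraries 1, 2 and 3. The milk lipid secretion gene Btn1a1 had log2 fold change 0.58, the bile salt-stimulated lipase gene Cel 0.69, the acute-phase gene Saa3 0.64 and the mucin gene Glycam1 0.24. Without wild type library 1 the milk median was 0.12.

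The sign of several list medians depended on the scaling. After trimmed-mean rescaling the median was -0.26 for the 8 transporters, -0.16 for the amino acid response, -0.09 for the synthetases (12 of 20 below 0), -0.19 for glutathione and NRF2 genes and 0.66 for milk proteins. It turned positive for the other plasma membrane transporters (0.10), the lysosomal and mTORC1 genes (0.07) and the branched-chain, glutamine and arginine genes (0.21). Without wild type library 1 and with the values as deposited, those 3 medians were -0.016, -0.13 and -0.063.

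**Figure D5:**
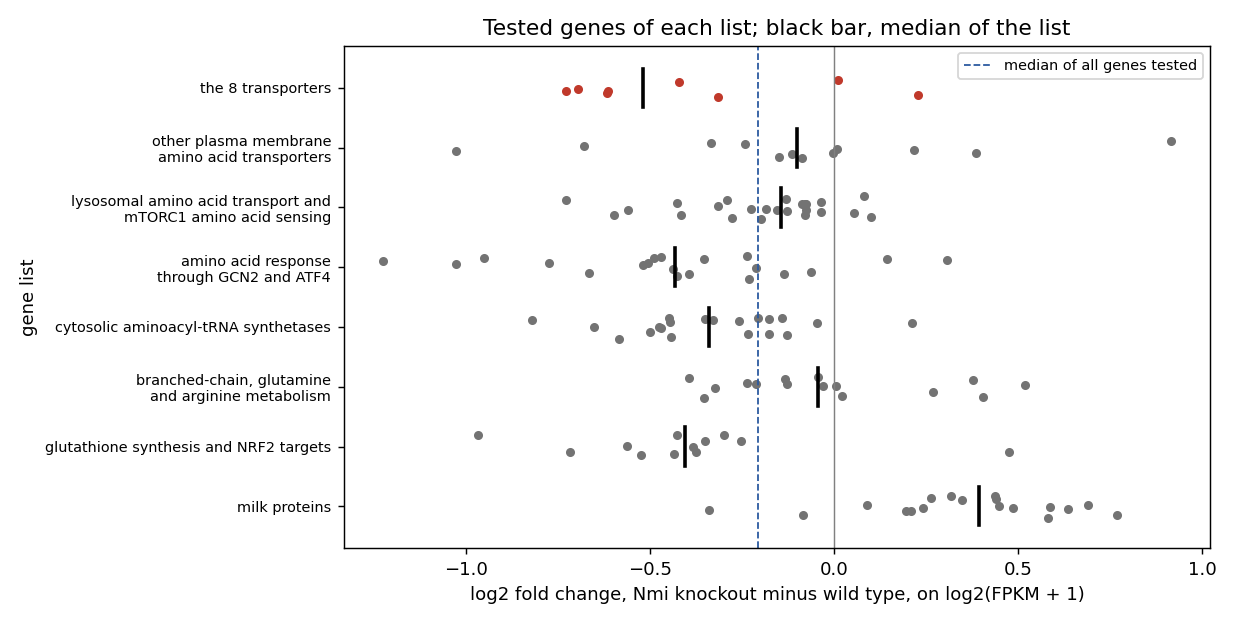
Log2 fold change of every tested gene of each list, Nmi knockout minus wild type, with the median of each list as a black bar and that of all genes as a dashed line. The 8 transporters have a median of -0.52, next to -0.43 for the amino acid response genes and 0.39 for the milk proteins.

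Profiles over the 6 libraries were compared as log2(FPKM + 1) centred on each gene's mean, with the root mean square difference as the measure of likeness. The genes nearest to Slc1a5 were Nupr1 (difference 0.115) and Arhgdig, and those nearest to Slc7a11 were Hmox1 (0.160) and Prc1. Slc38a1 lay nearest to Gadd45a (0.180) and Prrg4, and Slc7a1 to Aloxe3 (0.0269) and Ttc39c. Slc3a2 lay nearest to the mitochondrial histidine synthetase gene Hars2 (0.0378) and to Zbtb8a, and Slc38a2 to the mitochondrial ribosomal protein gene Mrpl55 (0.0414) and Cep57. Slc7a5 lay nearest to the autophagy kinase gene Ulk1 (0.0644) and to Matn2, and Slc1a4 to 1700012B07Rik (0.0757) and Tctn3. Differences between genes of unlike spread are not on one footing, since a flat profile is near many others. Within the 8, the closest to Slc1a5 was Slc7a1, at rank 33 among all genes, and the closest to Slc38a1 was Slc1a5, at rank 41. Slc3a2 was not near its light chains: its closest transporter was Slc38a2, at rank 2600 among all genes, and the closest transporter to Slc7a5 was Slc1a4, at rank 1530.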

How the data were processed

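The authors deposited 1 table of FPKM for 17739 gene symbols in 6 libraries. FastQC, TopHat, SAMtools and Cufflinks and the builds mm10 and GRCm38 are named, per the submitters' processing notes; versions, annotation and strand settings were not given in what was used here. Gapdh was listed at 0.0769 FPKM or less, so an entry of 0 was not read as absence. Read counts are unknown, so no counting interval was computed. Relative depth, estimated from the steps of low values, was 0.975 to 1.13 times that of wild type library 1.

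Tests covered the 9767 genes that reached 1 FPKM in 3 libraries or more, all 8 transporters among them, on log2(FPKM + 1), which understates changes of low genes. Nmi knockout was set against wild type with limma 3.58.1 (R 4.3.3; intensity trend, two-sided, Benjamini-Hochberg adjustment over all genes tested, threshold 0.05). Each transporter also had an exact permutation test. The limma script was tested on simulated data. The labels number each mouse but give no litter or day. The transporters and gene lists were chosen with earlier results of these data known. Genes named from a list were the 3 with the smallest p and the 2 with the highest FPKM, and for each transporter the 2 genes with the nearest profile; Atf5 and Vldlr were named after their values were seen.

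Coordinates are from GENCODE on GRCm38. BLAST 2.17.0 found no near-identical copy of the 8 genes (95% identity over a large part of the longest transcript), and no annotated gene shared exon bases with them. Alternatives were a pseudocount of 0.1, no filter, a minimum of 5 FPKM, trimmed-mean, quantile and non-milk rescaling, library weights, milk share as a covariate, leaving out each library, and leaving out wild type library 1 with Nmi knockout library 3.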

Additional observations from a re-analysis of the deposited data

How the results depend on the processing

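The number of genes at an adjusted p under 0.05 (limma, Benjamini-Hochberg) was 0 in 13 of 15 alternatives, 2 with library weights (Nmi, log2 fold change -1.59 and adjusted p = 0.000671, and Cdk5rap1) and 1 (Gm7367) without both end libraries, wild type library 1 and Nmi knockout library 3. No transporter was among them. The 130 genes at an unadjusted p under 0.05 became 326 with no filter, 51 at a minimum of 5 FPKM, 1142 with library weights, 78 without both end libraries and 25 to 1187 when single libraries were left out (25 without wild type library 1, 632 without wild type library 3, 1187 without Nmi knockout library 2 and 59 without Nmi knockout library 3). The 450 genes without overlap became 899 with no filter, 194 at a minimum of 5 FPKM, 1485 without both end libraries and 641 to 3149 when single libraries were left out. With fewer libraries a lack of overlap is easier to reach, so these counts are not on one footing. The genes tested were 17739 with no filter and 5423 at a minimum of 5 FPKM. With library weights 3 of the 8 transporters had an unadjusted p under 0.05 (Slc1a5, Slc38a1 and Slc7a1, lower, as were 9.96% of all genes), and 6 of the 8 did not overlap without wild type library 3, where 26.6% of all genes were lower without overlap. Slc7a5 was -0.053 with the milk share as a covariate, -0.0034 without both end libraries and -0.18 to 0.15 when single libraries were left out. Slc1a4 was -0.073 with the milk share as a covariate and -0.12 without both end libraries. The cause was not tested. The smallest adjusted p of any transporter over all alternatives was 0.297 (library weights). Slc7a11 could not be tested at a minimum of 5 FPKM. After rescaling, the share of unadjusted calls that were higher was 56.8% (trimmed mean), 48.6% (quantile) and 43.8% (non-milk sum), against 13.8% as deposited. No paired analysis was possible because the mouse numbers in the labels differ between the genotypes. With 3 mice per genotype no exact permutation p can be lower than 0.1.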
